A study of Homo sapiens with 18 samples.

Results

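The subject was 10 genes of the immediate early and AP-1 class, listed by symbol, with earlier results of these data known: the FOS family (FOS, FOSB, FOSL1 and FOSL2), the JUN family (JUN, JUNB and JUND), the zinc finger factor EGR1, the survival-associated gene IER3 and the phosphatase gene DUSP1. They were 10 of 57736 genes in the count table. Each had 1 row, and all 10 passed the filter on low counts and were among the 17317 genes tested.

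mRNA was measured in A1847 cells, a human ovarian cancer line, in 18 libraries of 3 replicates for each of 6 groups. The cells were control cells (labelled WT), CARM1 knockout cells (labelled koCARM1) and XBP1 knockdown cells (labelled shXBP1), each given vehicle (ctr) or 5 µg/ml tunicamycin (TM) for 8 h. CARM1 is an arginine methyltransferase, XBP1 is a transcription factor of the unfolded protein response, and tunicamycin blocks N-linked glycosylation, which loads the endoplasmic reticulum with unfolded protein. The study made the knockout with a lentiviral CRISPR vector under puromycin and the knockdown with a lentiviral shRNA. Whether a line was a single clone is not given in the sources used here. The study had a scramble shRNA control, and whether the control cells of these libraries carried it is not stated. Both modified lines were compared with the same 6 control libraries, so those comparisons are not independent of each other.

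Levels are given as CPM, the counts of a gene relative to its library's TMM-scaled total, and folds as log2 fold changes with their standard error (SE). A gene was called at a false discovery rate (FDR) of 5% in edgeR's quasi-likelihood test, adjusted over all genes tested. Library totals ran from 9367462 to 13917212 counts (median 12899157). The study describes its data in general as independent biological repeats, but the labels do not say that the libraries of a group came from separate cultures. Where they did not, the p-values measure only the spread between these libraries, which may be technical. A two-sided exact permutation test of 3 libraries against 3 has a smallest p of 0.1, and none was run.

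The libraries labelled koCARM1 stood apart from all others. Across genes, which are not independent replicates, log2 CPM correlated with r from 0.73 to 0.775 between those 6 libraries and the other 12, against 0.986 to 0.989 between replicates. CARM1 itself was at 162.3 ± 2.69 CPM (SD, n = 3) in control cells and at 74.2 ± 3.11 (SD, n = 3) in the knockout with vehicle, so the transcript remained detectable, and XBP1 was at 45.9 ± 4.50 (SD, n = 3) in control cells and 25.4 ± 1.25 (SD, n = 3) in the knockdown. HSPA5, the endoplasmic reticulum chaperone BiP, rose with tunicamycin in each line, from 1277 to 10685, from 984.1 to 13091.9 and from 1025.2 to 8133.2 mean CPM in control, knockout and knockdown cells.
Of 8 markers of serous ovarian epithelium 7 were tested, and 6 were higher and 1 lower in the vehicle-treated knockout than in control cells. Of all genes tested, 37.5% were called higher and 36.9% lower in that comparison. The lower one was KRT19, at a mean of 0.745 CPM in control cells and at 0 in every knockout library. The summed CPM of the 8 markers was 310.8 to 331.5 per library in vehicle-treated control cells, 2278.1 to 2346.2 in the knockout and 130.7 to 143.6 in the knockdown, and at most 3 counts per library were found for 4, 2 and 5 of the 8 markers. These sums were mostly the keratins KRT18 (means of 260.0 CPM in control and 1482.1 in knockout cells) and KRT8 (58.4 and 734.5). MUC16, which encodes CA125, was at 0 in every library. PAX8, a Müllerian lineage factor, had a mean of 0.0503 CPM in control cells and 61.2 in the knockout, and WT1 was at a mean of 0 and 0.9. Among markers of other cell types, the collagen gene COL1A1 had 15 and 478.9 CPM and CD3E none, and the summed CPM of the 4 markers in the table was 13.8 to 18.1 and 457.9 to 494.8. With tunicamycin the sums of the 8 epithelial markers were 461.8 to 488.1 in control, 1892.9 to 1998.1 in knockout and 198.2 to 213.6 in knockdown cells. The part of these differences in the values of the knockout given here was not tested. Whether the libraries labelled koCARM1 share their parental cells with the control libraries was not tested either, so that each knockout value below is a difference between the libraries carrying these labels, and the loss of CARM1 cannot be told apart from any other difference between the lines. In bulk RNA, fewer cells expressing a gene and less RNA per cell cannot be told apart.

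AP-1 is a family of dimers that bind DNA through basic leucine zippers. FOS proteins need a JUN partner, whereas JUN proteins also pair with each other, and the subunits differ in how strongly they activate. Immediate early genes are switched on within minutes of growth factor or stress signals through MAP kinases, ternary complex factors bound with SRF, and CREB-type factors, without new protein synthesis. EGR1 is itself such a factor, IER3 modulates survival signalling, and DUSP1 dephosphorylates MAP kinases in the nucleus and so closes the loop.

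The proximal promoters of 6 of these genes are printed, chosen for their changes in level. JUN, FOSL2 and DUSP1 were far higher in the libraries labelled koCARM1. JUNB and JUND fell with tunicamycin in control cells, and EGR1 moved in opposite directions in control and knockout cells. Whether any promoter match bears on these changes was not tested. Each run is the 250 bases before the annotated start, 5′ to 3′ on the gene's strand, from RefSeq on GRCh38.p14, a newer build than the GRCh37 (hg19) of the count table. Capitals mark matches to the motifs searched.
JUN (chr1:58784048-58784297, minus strand): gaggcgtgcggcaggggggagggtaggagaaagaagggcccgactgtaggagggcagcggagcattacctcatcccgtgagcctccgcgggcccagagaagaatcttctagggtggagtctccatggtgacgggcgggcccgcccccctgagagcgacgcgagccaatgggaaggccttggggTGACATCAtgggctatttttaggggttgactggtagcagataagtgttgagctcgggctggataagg
FOSL2 (chr2:28392608-28392857, plus strand): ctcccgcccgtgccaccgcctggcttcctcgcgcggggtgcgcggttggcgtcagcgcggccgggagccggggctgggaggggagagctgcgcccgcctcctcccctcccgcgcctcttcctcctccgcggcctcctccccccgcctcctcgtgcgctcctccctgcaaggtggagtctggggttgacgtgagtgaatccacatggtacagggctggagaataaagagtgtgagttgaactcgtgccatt
DUSP1 (chr5:172771196-172771445, minus strand): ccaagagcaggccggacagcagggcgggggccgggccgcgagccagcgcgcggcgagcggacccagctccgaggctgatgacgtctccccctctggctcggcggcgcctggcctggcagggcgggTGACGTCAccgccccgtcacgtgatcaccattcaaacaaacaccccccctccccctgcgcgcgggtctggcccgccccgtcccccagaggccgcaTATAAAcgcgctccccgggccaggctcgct
JUNB (chr19:12791236-12791485, plus strand): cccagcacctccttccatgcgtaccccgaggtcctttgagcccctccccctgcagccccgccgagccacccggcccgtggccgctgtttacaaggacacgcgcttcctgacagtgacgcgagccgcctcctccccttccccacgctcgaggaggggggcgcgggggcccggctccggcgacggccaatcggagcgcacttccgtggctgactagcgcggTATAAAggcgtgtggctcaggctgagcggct
JUND (chr19:18281623-18281872, minus strand): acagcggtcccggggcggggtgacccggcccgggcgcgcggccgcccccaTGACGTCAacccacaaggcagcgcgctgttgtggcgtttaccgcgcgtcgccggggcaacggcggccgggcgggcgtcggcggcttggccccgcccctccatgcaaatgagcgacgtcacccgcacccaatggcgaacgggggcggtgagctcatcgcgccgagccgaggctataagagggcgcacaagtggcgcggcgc
EGR1 (chr5:138465229-138465478, plus strand): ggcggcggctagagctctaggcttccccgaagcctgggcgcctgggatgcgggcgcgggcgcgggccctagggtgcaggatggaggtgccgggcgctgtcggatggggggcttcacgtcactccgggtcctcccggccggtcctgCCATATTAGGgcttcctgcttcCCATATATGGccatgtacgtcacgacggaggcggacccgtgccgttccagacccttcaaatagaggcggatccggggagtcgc
The motifs, on both strands, were TGANTCA (the AP-1 site), TGACATCA (the JUN promoter variant of it), TGACGTCA (the cyclic AMP response element, CRE), TGACGTGG (an XBP1 site), GCGTGGGCG (an EGR site), TATAAA, the CArG box bound by SRF and the endoplasmic reticulum stress element. No 2 capital runs above overlap. RefSeq windows were matched for 8 of the 10 genes, with FOSL1 and IER3 unmatched. JUN had TGACATCA 67 to 60 bases before its start, a match held by 2.37% of 35116 promoter windows of this length. TGACGTCA was found in JUND (200 to 193 bases before the start) and DUSP1 (125 to 118), and in 1.65% of all windows. EGR1 held a pair of CArG boxes, at 105 to 96 and 83 to 74 bases, against 1.16% of windows with at least 1. TATAAA lay 33 to 25 bases before the start in 4 of the 8 genes, FOS, FOSB, JUNB (31 to 26) and DUSP1 (30 to 25), and in 10.7% of windows at any place. None of the 8 windows held TGANTCA, TGACGTGG, GCGTGGGCG or the stress element, which were in 6.57%, 0.612%, 0.72% and 0.074% of all windows, and FOSL2 held no match at all. The windows were rich in G and C, from 62.0% in JUN to 74.8% in JUND, against a median of 58.0% over all windows. A match of letters is a description and not a bound site.

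Whether tunicamycin changed these genes was asked first in control cells. All libraries were taken at 8 h, so changes at earlier times were not measured. FOSL1 rose, JUNB, JUND, EGR1 and IER3 fell, and FOS, FOSB, FOSL2, JUN and DUSP1 did not pass the test. The 1 called rise stands against 22.0% of all genes tested called higher, and the 4 falls against 19.9% called lower. The median log2 fold change of the 10 genes was 0.02, and that of all genes was 0.

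**Figure D1:**
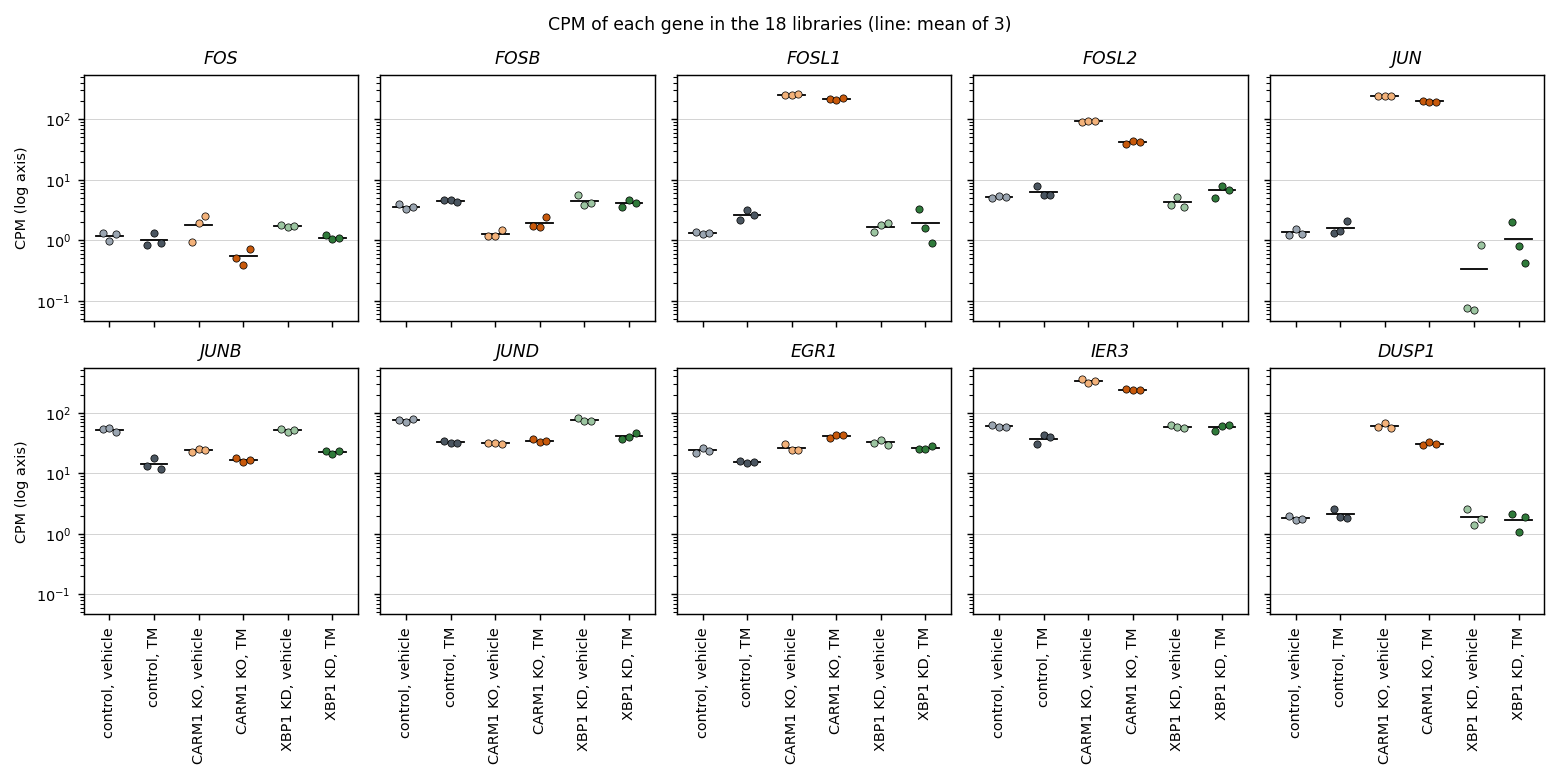
CPM on a log axis of each of the 10 genes in every library, by group (control, CARM1 KO for knockout, XBP1 KD for knockdown, TM for tunicamycin), with points for libraries and a line for the mean of 3. FOSL1, FOSL2, JUN, IER3 and DUSP1 lie far higher in the 6 knockout libraries than in the other 12, and the 2 lowest points of JUN are knockdown libraries with 1 count each.

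Of the FOS family, FOS (ENSG00000170345, chr14:75745529-75748933, plus strand; all positions of the 10 genes are on GRCh37), the founding partner of JUN, was low throughout. It had 1.32, 0.958 and 1.27 CPM in the 3 vehicle-treated control libraries and 0.832, 1.32 and 0.912 with tunicamycin. The groups overlapped, with a log2 fold change of −0.20 (SE 0.39, edgeR adjusted p = 0.733). In knockout cells FOS was at 0.932, 1.93 and 2.52 with vehicle and at 0.515, 0.397 and 0.715 with tunicamycin, which did not overlap. These levels came from 12, 23 and 22 counts with vehicle and from 6, 5 and 9 with tunicamycin. The log2 fold change was −1.63 (SE 0.458, edgeR adjusted p = 0.00665), and without replicate 3 of the vehicle-treated knockout it was −1.33 with an adjusted p of 0.0523 from the same test. In knockdown cells FOS was at 1.81, 1.63 and 1.69 with vehicle and 1.2, 1.05 and 1.08 with tunicamycin, with a log2 fold change of −0.62 that was not called (edgeR adjusted p = 0.168). The interaction in the knockout was −1.45 (SE 0.595, edgeR adjusted p = 0.0894), and without replicate 1 of the vehicle-treated knockout it was called (−1.79, edgeR adjusted p = 0.0287).
FOSB (ENSG00000125740, chr19:45971253-45978437, plus strand), the subunit known for its stable splice form in neurons, had 3.95, 3.32 and 3.55 CPM in vehicle-treated control cells and 1.17, 1.17 and 1.49 in the knockout. All knockout libraries were lower, with a log2 fold change of −1.55 (SE 0.262, edgeR adjusted p = 6.53e-05). With tunicamycin the libraries were at 4.57, 4.62 and 4.25 in control and 1.72, 1.67 and 2.38 in knockout cells, again without overlap (−1.21, SE 0.224, edgeR adjusted p = 0.00018). In knockdown cells it ranged from 3.53 to 5.57 over the 6 libraries and was not called. FOSB overlaps ERCC1 on the opposite strand, which had 478 to 738 counts per library, and the strand setting of the counting is not stated.

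FOSL1 (ENSG00000175592, chr11:65659520-65668044, minus strand) encodes FRA-1, a subunit without the strong activation domain of FOS and a marker of sustained ERK signalling and invasive epithelial cancers. It had 1.39, 1.25 and 1.34 CPM in vehicle-treated control libraries and 253.8, 251.8 and 261.2 in the knockout. The knockout mean was 192.4 times the control mean, a log2 fold change of 7.53 (SE 0.0858, edgeR adjusted p = 3.27e-18). With tunicamycin FOSL1 was at 2.16, 3.22 and 2.58 in control and at 213.4, 212.0 and 228.1 in the knockout (log2 fold change 6.36, SE 0.0923, edgeR adjusted p = 7.73e-17). The 2 lines moved in opposite directions with the drug, up in control cells (1.01, SE 0.291, edgeR adjusted p = 0.0104) and down in the knockout (−0.19, SE 0.0394, edgeR adjusted p = 0.00039), and the interaction was −1.22 (SE 0.204, edgeR adjusted p = 0.00016). The rise in control cells was lost without replicate 2 of the tunicamycin-treated control (0.84, edgeR adjusted p = 0.063). In knockdown cells FOSL1 was at 1.36, 1.77 and 1.90 with vehicle and at 3.24, 1.58 and 0.910 with tunicamycin, overlapping groups that did not differ by the test (0.20, edgeR adjusted p = 0.748).
FOSL2 (ENSG00000075426, chr2:28615315-28640184, plus strand) encodes FRA-2, the other FRA subunit. Its levels were 4.95, 5.38 and 5.16 CPM in vehicle-treated control cells and 89.9, 93.6 and 94.9 in the knockout, 18 times as high (log2 fold change 4.12, SE 0.0839, edgeR adjusted p = 8.41e-16). With tunicamycin it was at 7.90, 5.69 and 5.55 in control cells and at 39.2, 43.6 and 41.4 in the knockout. In the knockout every treated library was lower (log2 fold change −1.13, SE 0.0568, edgeR adjusted p = 3.74e-13), while in control cells the change was 0.31 and not called (edgeR adjusted p = 0.185). The interaction was −1.46 (SE 0.159, edgeR adjusted p = 1.01e-06). In knockdown cells FOSL2 was at 3.84, 5.25 and 3.58 with vehicle and 5.08, 7.99 and 6.87 with tunicamycin. The log2 fold change of 0.63 was called (SE 0.212, edgeR adjusted p = 0.027) although the groups overlapped, and the call was lost without replicate 1 or 3 of the vehicle group (0.57 and 0.53) or replicate 2 or 3 of the tunicamycin group (0.49 and 0.61).

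JUN (ENSG00000177606, chr1:59242517-59249720, minus strand), the main dimer partner of the FOS proteins and a substrate of the JNK kinases, had the widest span of the 10 genes, 9.33 log2 units between its highest and lowest group means. In vehicle-treated control cells it was at 1.24, 1.55 and 1.27 CPM, from 16, 21 and 19 counts. In the knockout it was at 241.5, 241.7 and 240.5 CPM, from 3109, 2882 and 2100 counts, which was 178.3 times as high (log2 fold change 7.42, SE 0.0871, edgeR adjusted p = 3.75e-18). With tunicamycin the levels were 1.33, 1.40 and 2.05 in control and 203.4, 194.7 and 196.1 in knockout cells (6.94, SE 0.097, edgeR adjusted p = 5.24e-17). The knockout libraries fell with the drug without overlap (log2 fold change −0.25, SE 0.0366, edgeR adjusted p = 8.95e-06), and the interaction of −0.53 was not called (edgeR adjusted p = 0.147).
In knockdown cells JUN was sparse and uneven, with 1, 1 and 12 counts with vehicle and 28, 9 and 5 with tunicamycin. Against vehicle-treated control cells the log2 fold change was −2.0 (SE 0.642, edgeR adjusted p = 0.096), and all 3 knockdown libraries were lower. It was called without the filter on low counts (−1.99, adjusted p = 0.00542), with all libraries in 1 fit (−1.98, adjusted p = 0.0196) and without replicate 3 of the vehicle-treated knockdown (−4.05, adjusted p = 0.00586), all from edgeR. The response to tunicamycin, 1.66 (SE 0.78, edgeR adjusted p = 0.112), was likewise called without the filter (adjusted p = 0.02), with all libraries in 1 edgeR fit (adjusted p = 0.0175), and without that replicate (3.72, adjusted p = 0.00558).

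JUNB (ENSG00000171223, chr19:12902300-12904129, plus strand), a JUN family member that can restrain the activity of JUN, fell with tunicamycin in each line. It went from 52.9, 56.2 and 48.5 CPM to 13.1, 17.6 and 11.8 in control cells, a log2 fold change of −1.88 (SE 0.118, edgeR adjusted p = 1.92e-09), the largest fall of the 10 genes in these cells. It went from 22.4, 25.2 and 24.6 to 18, 15.6 and 16.3 in knockout cells (−0.50, SE 0.0951, edgeR adjusted p = 0.000207) and from 54.7, 48.0 and 51.5 to 23.6, 20.5 and 23.3 in knockdown cells (−1.20, SE 0.0829, edgeR adjusted p = 1.74e-08). No vehicle group overlapped its tunicamycin group. The fall was smaller in both modified lines, with an interaction of 1.37 in the knockout (SE 0.162, edgeR adjusted p = 2.81e-06) and 0.69 in the knockdown (SE 0.154, edgeR adjusted p = 0.0189). In the knockdown that term was lost without any of 4 single libraries, replicate 2 of the vehicle-treated control (0.64), replicate 3 of the tunicamycin-treated control (0.57), replicate 2 of the vehicle-treated knockdown (0.64) or replicate 3 of the tunicamycin-treated knockdown (0.66).
Between lines, JUNB in the knockout lay below control cells with vehicle (−1.17, SE 0.0829, edgeR adjusted p = 3.46e-09) and not with tunicamycin (0.24, edgeR adjusted p = 0.126). Without replicate 2 of the tunicamycin-treated control it was called higher there (0.42, edgeR adjusted p = 0.00547). In the knockdown it was 0.67 higher with tunicamycin (SE 0.134, edgeR adjusted p = 0.00277). JUNB overlaps HOOK2 on the opposite strand, which had 171 to 283 counts per library.

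JUND (ENSG00000130522, chr19:18390504-18392432, minus strand), the JUN family member that most cells express without stimulation, fell from 76.1, 70.9 and 77.4 CPM to 34.3, 31.7 and 31.6 with tunicamycin in control cells (log2 fold change −1.19, SE 0.0726, edgeR adjusted p = 1.35e-09). It fell from 81.7, 72.6 and 72.5 to 37.1, 40.4 and 45.9 in knockdown cells (−0.89, SE 0.0799, edgeR adjusted p = 3.25e-07). In the knockout it was already at 32.2, 31.6 and 29.9 with vehicle, near the treated control level, and at 36.6, 32.8 and 33.9 with tunicamycin, which was not called (0.17, edgeR adjusted p = 0.0742). Knockout and control cells thus differed with vehicle (−1.30, SE 0.0682, edgeR adjusted p = 8.79e-11) and not detectably with tunicamycin (0.09, edgeR adjusted p = 0.298), and the interaction was 1.34 (SE 0.0982, edgeR adjusted p = 4.38e-09). In the knockdown JUND was 0.34 higher than in control cells with tunicamycin (SE 0.0862, edgeR adjusted p = 0.0141), and the call was lost without replicate 3 of the treated control (0.32) or of the treated knockdown (0.25). Its interaction there, 0.31, was not called (edgeR adjusted p = 0.192).

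**Figure D2:**
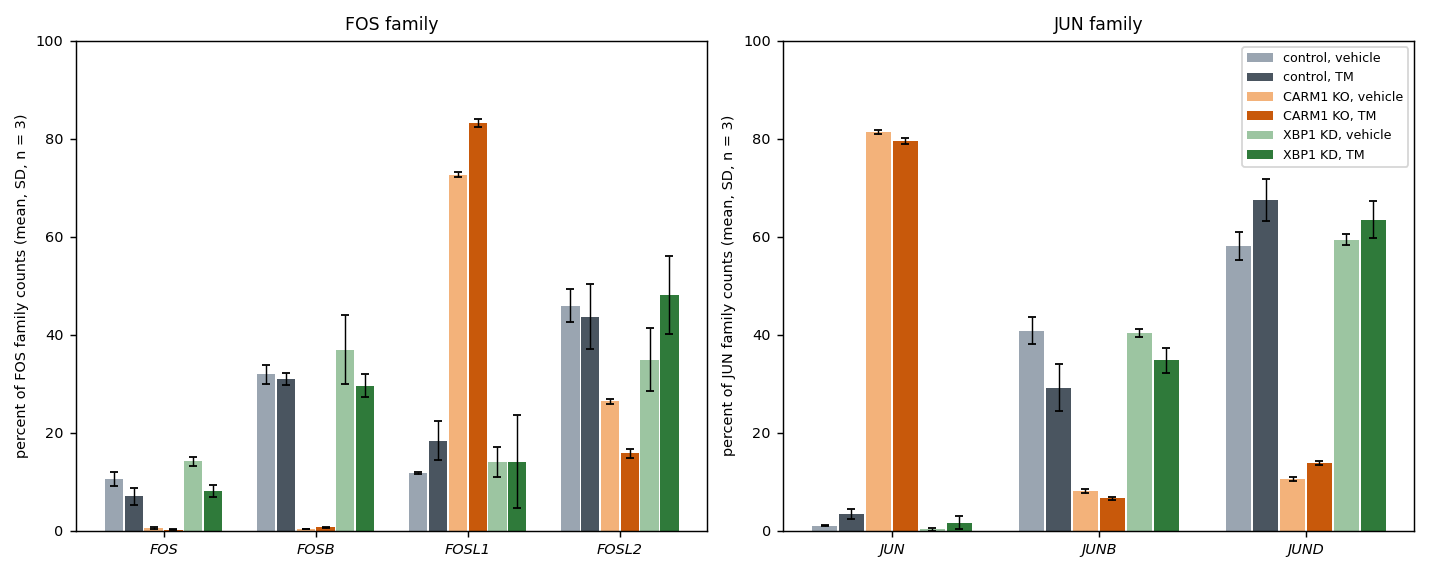
Share (percent, mean of 3 libraries, with bars for the SD) of each subunit in the summed counts of its family, FOS family and JUN family, in the 6 groups. FOSL1 rises from 11.8% to 72.7% and JUN from 1.05% to 81.4% between vehicle-treated control and knockout cells.

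Within its family, each subunit's share of the counts can be followed across groups. How counts of 3′ ends compare between genes was not tested, so the shares are not used to rank the subunits. FOSL1 made up 11.8% ± 0.262 (SD, n = 3) of FOS family counts in vehicle-treated control cells, 72.7% ± 0.597 (SD, n = 3) in the knockout and 14% ± 3.06 (SD, n = 3) in the knockdown. The share of FOSB was 31.9%, 0.362% and 36.9% in the same order. JUN made up 1.05% ± 0.134 (SD, n = 3) of JUN family counts in control cells, 81.4% ± 0.345 (SD, n = 3) in the knockout and 0.263% ± 0.357 (SD, n = 3) in the knockdown, and JUND 58.1%, 10.5% and 59.4%. With tunicamycin the knockout shares were 83.2% ± 0.822 (SD, n = 3) for FOSL1 and 15.8% ± 0.944 (SD, n = 3) for FOSL2, against 26.4% ± 0.431 (SD, n = 3) for FOSL2 with vehicle. The FOS family had 148 to 186 counts per control library and 2971 to 4451 per knockout library. The JUN family had 1684 to 1900 counts per vehicle-treated control library, 586 to 614 with tunicamycin, and 2576 to 3811 per knockout library over both treatments. The shares were not tested.

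EGR1 (ENSG00000120738, chr5:137801168-137804992, plus strand), a zinc finger factor induced through SRF at its CArG boxes, was the 1 gene of the 10 that fell in control cells and rose in the knockout by the test. It went from 21.6, 26.3 and 23.4 CPM to 16.1, 14.8 and 15.3 in control cells (log2 fold change −0.62, SE 0.104, edgeR adjusted p = 0.000145), with every treated library lower. In the knockout it went from 30.1, 24.6 and 24.4 to 38.8, 42.9 and 42.6 (0.68, SE 0.0846, edgeR adjusted p = 9.41e-07), with every treated library higher. The interaction was 1.28 (SE 0.136, edgeR adjusted p = 7.98e-07). In the knockdown it went from 32.2, 35.3 and 29.5 to 25.2, 25.0 and 28.6 (−0.31, SE 0.091, edgeR adjusted p = 0.0133), and this fall was lost without replicate 2 of the vehicle group (−0.24) or replicate 1 or 2 of the tunicamycin group (−0.27 for each).
Against control cells, EGR1 did not differ detectably in the vehicle-treated knockout (0.11, edgeR adjusted p = 0.362) and was higher with tunicamycin (1.43, SE 0.0831, edgeR adjusted p = 5.06e-10). It was the 1 member called between knockdown and control cells with vehicle (0.44, SE 0.0971, edgeR adjusted p = 0.0172), a call lost without replicate 1 of the control (0.37) or replicate 1 or 2 of the knockdown (0.44 and 0.37). With tunicamycin it was 0.77 higher in the knockdown (SE 0.0989, edgeR adjusted p = 6.35e-05), and no library of one group reached the other.

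IER3 (ENSG00000137331, chr6:30710976-30712325, minus strand), an early response gene tied to NF-κB and ERK signalling, was at 63.4, 57.4 and 58.0 CPM in vehicle-treated control cells and 358.0, 306.8 and 336.7 in the knockout, 5.60 times as high (log2 fold change 2.44, SE 0.0641, edgeR adjusted p = 1.78e-14). With tunicamycin it was at 29.9, 42.7 and 39.3 in control and 244.2, 233.5 and 240.7 in knockout cells (2.69, SE 0.0881, edgeR adjusted p = 6.06e-13). It fell with the drug in control (−0.66, SE 0.104, edgeR adjusted p = 6.81e-05) and in knockout cells (−0.44, SE 0.0463, edgeR adjusted p = 6.96e-08), and the interaction of 0.20 was not called (edgeR adjusted p = 0.265). That term was called without the filter on low counts (0.27, edgeR adjusted p = 0.0163) and without replicate 2 of the treated control (0.36, edgeR adjusted p = 0.0274).
Knockdown cells showed no such fall, with 63.0, 57.8 and 55.1 CPM with vehicle and 50.5, 60.2 and 63.6 with tunicamycin (−0.02, edgeR adjusted p = 0.871). IER3 was 0.64 higher there than in treated control cells (SE 0.112, edgeR adjusted p = 0.00103), and the interaction was 0.65 (SE 0.148, edgeR adjusted p = 0.0227). The interaction fell short of the threshold when any of 5 libraries was left out, replicate 1 of the vehicle-treated control (0.60), replicate 2 or 3 of the vehicle-treated knockdown (0.64 and 0.60) or replicate 2 or 3 of the treated knockdown (0.62 and 0.57). IER3-AS1 on the opposite strand had 6 to 29 counts per library, and HCG20 up to 11.

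DUSP1 (ENSG00000120129, chr5:172195099-172198198, minus strand), the phosphatase that inactivates p38 and JNK, was at 1.93, 1.69 and 1.74 CPM in vehicle-treated control cells and at 59.2, 66.4 and 55.6 in the knockout, 33.8 times as high (log2 fold change 5.03, SE 0.126, edgeR adjusted p = 1.06e-14). With tunicamycin it was at 2.58, 1.90 and 1.82 in control and 29.4, 33.3 and 30.3 in knockout cells (3.89, SE 0.14, edgeR adjusted p = 1.8e-12). The knockout libraries fell with the drug (−0.93, SE 0.0731, edgeR adjusted p = 7.7e-10), the control libraries moved by 0.24 without a call (edgeR adjusted p = 0.553), and the interaction was −1.19 (SE 0.236, edgeR adjusted p = 0.000862). In knockdown cells it ranged from 1.05 to 2.56 CPM over both treatments and was not called (−0.17, edgeR adjusted p = 0.767).

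**Figure D3:**
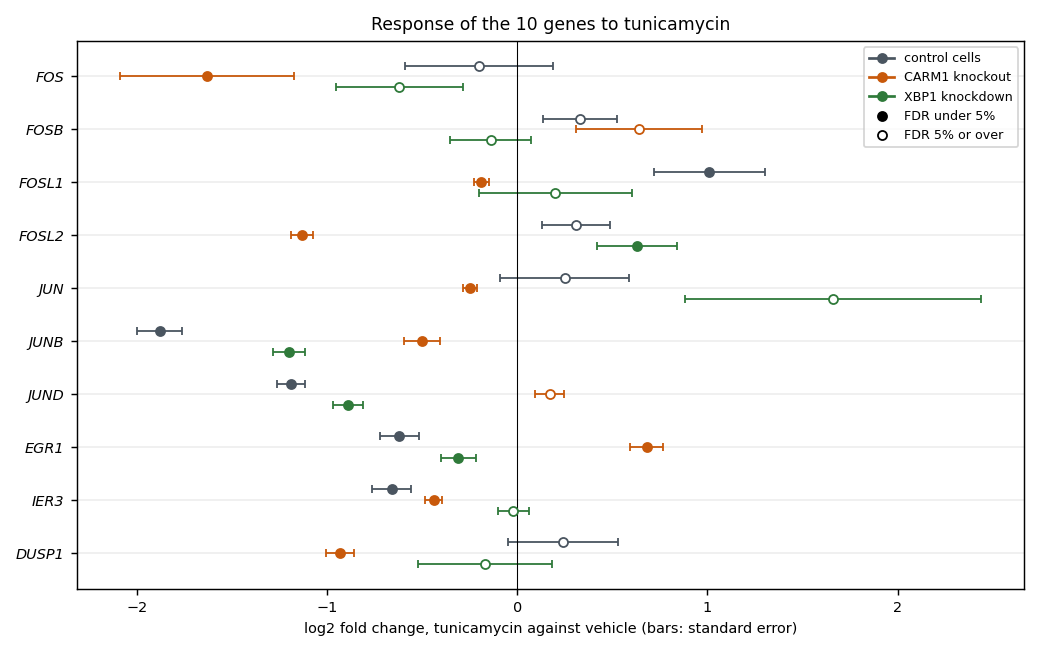
Log2 fold change of tunicamycin against vehicle for each of the 10 genes in control, CARM1 knockout and XBP1 knockdown cells, with bars for the SE and filled points for an FDR under 5%. JUNB falls in each line (−1.88, −0.50 and −1.20), and EGR1 falls in control cells (−0.62) and rises in the knockout (0.68).

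By calls over the 10 genes, the knockout had 1 rise with tunicamycin (EGR1) and 7 falls (FOS, FOSL1, FOSL2, JUN, JUNB, IER3 and DUSP1). Its median log2 fold change was −0.35. In the background 20.6% of genes tested were called higher and 18.8% lower in that comparison. The knockdown had 1 rise (FOSL2) and 3 falls (JUNB, JUND and EGR1), with a median of −0.15, against 19.2% called higher and 19.0% lower. JUNB was the 1 gene whose fall was called in all 3 lines. In the knockout the interaction with tunicamycin was called above 0 for JUNB, JUND and EGR1 and below 0 for FOSL1, FOSL2 and DUSP1. These were 3 and 3 of 10, against 10.5% and 12.4% of all genes. In the knockdown the interaction was called above 0 for JUNB and IER3 and below 0 for none. These were 2 and 0 of 10, against 0.364% and 1.67%. At an unadjusted p under 0.05 these were 4 and 0 in edgeR, and DESeq2 called 2 and 0.

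**Figure D4:**
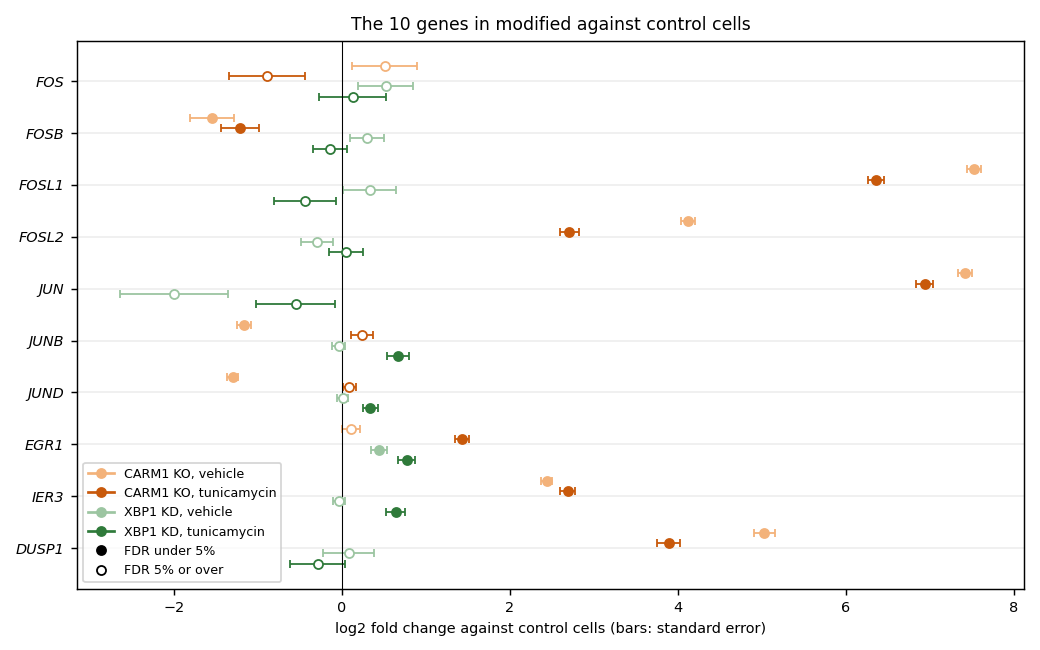
Log2 fold change of CARM1 knockout (KO) and XBP1 knockdown (KD) against control cells under vehicle and under tunicamycin for the 10 genes, with bars for the SE and filled points for an FDR under 5%. FOSL1 and JUN reach 7.53 and 7.42 in the vehicle-treated knockout, while all knockdown values that pass lie between 0.34 and 0.77.

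Between lines, the vehicle-treated knockout had 5 genes higher (FOSL1, FOSL2, JUN, IER3 and DUSP1) and 3 lower (FOSB, JUNB and JUND) than control cells, with a median of 1.48. Of all genes tested, 37.5% were higher and 36.9% lower, so a call in either direction was common in this comparison. With tunicamycin 6 were higher, EGR1 being added, and 1 was lower (FOSB), with a median of 2.06, against 38.4% and 36.8%. The knockdown had 1 gene higher and 0 lower with vehicle (median 0.05), against 2.07% and 3.03% of all genes, and 4 higher and 0 lower with tunicamycin (median 0.09), against 6.99% and 8.55%. At an unadjusted p under 0.05 in edgeR 1 was higher and 1 lower with vehicle and 4 and 0 with tunicamycin, and DESeq2 called the same numbers as edgeR, 1 and 0, then 4 and 0. The medians of all genes lay between −0.0298 and 0.000836 in the 9 comparisons.

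Ordered by group means, FOSL1, FOSL2, JUN, IER3 and DUSP1 were highest in the vehicle-treated knockout, second in the treated knockout and lower in the 4 other groups. For each of these 5 genes the libraries of the 2 knockout groups did not overlap. The share of all genes without such overlap was not counted. Between these 2 groups 20.6% of all genes tested were called higher and 18.8% lower with tunicamycin. Among the 4 other groups, DUSP1 ran from 1.05 to 2.58 CPM with neighbouring groups overlapping. FOS, FOSB and JUNB had other orders, with JUNB highest in control and knockdown cells under vehicle, which overlapped, and lowest in treated control cells, which overlapped with the treated knockout. JUND was highest in the same pair of groups, which again overlapped, and the 3 groups at its lower end (treated knockout, treated control and vehicle-treated knockout) overlapped in turn, with mean levels of 34.4, 32.5 and 31.2 CPM. EGR1 was highest in the treated knockout, at a mean of 41.4 CPM against 32.4 in the vehicle-treated knockdown, without overlap.
The genes closest to each member were found from the root mean square difference of centred log2 CPM over the 6 group means. Only genes with a symbol whose log2 CPM averaged at least 3 over all libraries were searched. The closest were OGFRL1 (0.36) and TNFRSF6B (0.39) for FOSL1, and FAM241B (0.22) and HEG1 (0.26) for FOSL2. For JUN, the member with the least close neighbours in this search, they were ZNF542P (0.55) and SLC44A3-AS1 (0.57). The lowest group mean of JUN, in the vehicle-treated knockdown, came from 1, 1 and 12 counts. For IER3 the closest were CORO1C and the pseudogene MTND6P4 (0.15 each), and for DUSP1 they were ADD2 (0.24) and ABHD12B (0.27). CCNE1, which encodes cyclin E1, lay at 0.14 from JUNB and SAMD1 at 0.17, and GIT1 (0.09) lay near JUND. EGR1 was nearest to COMTD1 (0.16) and NAGPA (0.17), FOS to ZFP36L2 (0.15) and CDKN2C (0.19), and FOSB to OARD1 (0.09) and MBLAC2 (0.10).

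The related genes were taken from fixed lists. To be set beside their counts, the shares of all genes called higher and lower with tunicamycin were 22.0% and 19.9% in control, 20.6% and 18.8% in knockout and 19.2% and 19.0% in knockdown cells. Against control cells they were 37.5% and 36.9% in the knockout with vehicle and 38.4% and 36.8% with tunicamycin. In the knockdown they were 2.07% and 3.03% with vehicle and 6.99% and 8.55% with tunicamycin. For the interaction, 10.5% and 12.4% of all genes were called above and below 0 in the knockout, and 0.364% and 1.67% in the knockdown. Unless said otherwise, the genes named are those with the largest called changes among list genes whose log2 CPM averaged at least 3 over all libraries, and genes below that level can have changed more. Those named here from below it were singled out after their values were seen.

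Other immediate early genes, 24 of 25 listed being tested, split between directions with tunicamycin, 5 higher and 7 lower in control cells (median −0.25), 7 and 8 in the knockout (−0.02) and 8 and 6 in the knockdown (−0.12). PPP1R15A, which encodes GADD34 and reverses the translational arrest of the stress response, rose in each line, by log2 fold changes of 3.38 (SE 0.12), 1.88 (SE 0.0446) and 2.97 (SE 0.127). IER2 fell in control cells (−0.94, SE 0.0542) and knockdown cells (−0.50, SE 0.0517), and IER5 in the knockout (−0.63, SE 0.0482). Below the level named above, the nuclear receptor gene NR4A2 rose more in control cells (3.93, SE 0.254), and its relative NR4A3 fell more there (−2.76, SE 0.516). Against control cells, 14 were higher and 9 lower in the knockout with vehicle (median 0.97) and 17 and 5 in the treated knockout (1.15). The matricellular gene CCN1 was higher with vehicle (3.92, SE 0.0469) and the antiproliferative gene BTG1 with tunicamycin (2.79, SE 0.0468), while ARC, below that level, was higher by more under each (4.99, SE 0.156, and 7.30, SE 0.169). SRF, the partner of the ternary complex factors, was lower in both (−1.95 and −1.49). In the knockdown with vehicle 1 was higher, MYC (0.44, SE 0.107, edgeR adjusted p = 0.025), and 1 lower, GADD45B (−0.61, SE 0.149, edgeR adjusted p = 0.0271). With tunicamycin 8 were higher and 3 lower (median 0.27). There MYC was higher (0.66, SE 0.102) and PPP1R15A lower (−0.34, SE 0.0956, edgeR adjusted p = 0.0228), with NR4A2 lower still (−1.39, SE 0.208). The calls of MYC and GADD45B with vehicle and of PPP1R15A with tunicamycin did not pass an FDR of 1%. The interaction was called above 0 for 6 and below 0 for 7 in the knockout, and for 2 and 1 in the knockdown.

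Of the other leucine zipper partners, 13 of 15 were tested, and 7, 8 and 7 rose with tunicamycin in control, knockout and knockdown cells while 1, 0 and 1 fell (medians 0.80, 0.41 and 0.53), against 22.0%, 20.6% and 19.2% of all genes called higher and 19.9%, 18.8% and 19.0% lower. DDIT3, which encodes the stress factor CHOP, rose by log2 fold changes of 4.61 (SE 0.0841), 5.02 (SE 0.0573) and 4.48 (SE 0.0757). ATF3, another stress-induced factor and below the level named above, rose by more in control (6.50, SE 0.152) and knockdown cells (6.76, SE 0.132) and by 2.33 in the knockout (SE 0.141). MAFK fell in the knockdown (−0.60, SE 0.108). The knockout had 7 higher and 2 lower with vehicle and 4 and 6 with tunicamycin, with MAFF higher (2.74 and 2.38) and MAFG lower (−0.73 and −1.11). The knockdown had 1 and 0 with vehicle and 2 and 3 with tunicamycin. The interaction was called above 0 for 1 and below 0 for 6 in the knockout, and for 0 and 2 in the knockdown. For the counts of 0 in this list, an unadjusted p under 0.05 in edgeR gave 0 falls with tunicamycin in the knockout, 1 lower gene in the vehicle-treated knockdown and 1 interaction above 0 in the knockdown, and DESeq2 gave 0 for each.

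Of the 9 other MAP kinase phosphatases, 1 rose and 3 fell with tunicamycin in control and in knockdown cells (medians −0.55 and −0.53), and 3 rose and 2 fell in the knockout (0.21). DUSP2, a nuclear phosphatase like DUSP1, fell in control (−1.53, SE 0.128) and knockdown cells (−1.02, SE 0.114), and DUSP5, also nuclear and below the level named above, fell more (−2.57, SE 0.339, and −1.31, SE 0.295). DUSP6, the cytoplasmic ERK phosphatase and an ERK output gene, was below control cells in the knockout with vehicle (−3.59, SE 0.0541) and with tunicamycin (−2.43, SE 0.0475), opposite to DUSP1. DUSP5 was higher in the knockout, as DUSP1 was. Its mean CPM was 56.0 there against 3.57 in control cells with vehicle, and 75.9 against 0.59 with tunicamycin. In the knockout the list had 5 higher and 3 lower with vehicle and 6 and 2 with tunicamycin. The knockdown had 1 and 0, then 2 and 0. Called interactions were 3 above and 0 below 0 in the knockout and 1 and 0 in the knockdown.
The ERK output genes (15 of 16 tested) had 5 higher and 6 lower with tunicamycin in control cells, 3 and 6 in the knockout and 4 and 4 in the knockdown. Between lines they had 6 and 7 with vehicle and 6 and 5 with tunicamycin in the knockout (medians −0.15 and −0.08), with PHLDA2 higher (5.88 and 6.81) and the ERK antagonist SPRY1 lower (−6.83 and −7.11), which had 3 to 8 counts per knockout library. In the knockdown 2 and 0 differed with vehicle and 6 and 0 with tunicamycin, SPRY4 among them (0.30 and 0.88). The interaction was called above 0 for 3 and below 0 for 2 in the knockout and for 3 and 0 in the knockdown. Every count of 0 in the phosphatase and ERK output lists was also 0 at an unadjusted p under 0.05 in edgeR and by DESeq2.

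The 16 upstream kinases and ternary complex factors had 5 higher and 6 lower with tunicamycin in control cells, 3 and 5 in the knockout and 3 and 5 in the knockdown. ERN1, which encodes the stress sensor IRE1α, rose in each line (1.47, 1.10 and 1.46). ELK3, a ternary complex factor, fell in control (−1.74, SE 0.116) and knockdown cells (−1.35, SE 0.113). Against control cells the knockout had 9 higher and 6 lower with vehicle and 9 and 4 with tunicamycin, where ELK3 was 3.02 higher (SE 0.0852), and MAPK8, which encodes JNK1, was 1.70 higher with vehicle (SE 0.0828). In the knockdown 0 differed with vehicle by edgeR and DESeq2, 4 being higher and 0 lower at an unadjusted p under 0.05, and 6 were higher and 0 lower with tunicamycin (7 and 1 unadjusted, 5 and 0 by DESeq2), ELK3 by 0.68 (SE 0.142). The interaction was called above 0 for 4 and below 0 for 3 in the knockout. In the knockdown 2 and 0 were called (4 and 1 unadjusted, 2 and 0 by DESeq2).

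Genes reported in general knowledge as AP-1 targets, 19 of 21 tested, had 13 members above and 5 below control cells in the knockout under each treatment, with medians of 2.16 and 1.57, against 37.5% and 36.9% of all genes with vehicle and 38.4% and 36.8% with tunicamycin. GJA1, a gap junction gene, was lower (−5.49, SE 0.0716, and −5.86, SE 0.0821). With tunicamycin 5 rose and 4 fell in control cells, 4 and 8 in the knockout and 6 and 4 in the knockdown. Among the genes that changed were HMOX1, a heme oxygenase (1.91 and 1.67 in control and knockdown cells), PLAUR, the urokinase receptor (−1.21 and −1.15), and in the knockout VEGFA (2.82), a growth factor of blood vessels. In the knockdown 1 was higher and 2 lower with vehicle and 3 and 5 with tunicamycin, with the intermediate filament gene VIM higher under both (0.39 and 0.64) and the keratin gene KRT18 lower with tunicamycin (−1.21). The interaction was called above 0 for 2 and below 0 for 5 in the knockout. In the knockdown edgeR called 0 in either direction. There 2 were above and 1 below 0 at an unadjusted p under 0.05 in edgeR, and DESeq2 called 1 above.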

How the data were processed

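Total RNA of 18 A1847 libraries was sequenced by the study from 3′ ends on a NextSeq 500. The authors used bowtie2 with hg19 and RSEM, and the expected counts they deposited, 1 value per Ensembl gene and library, are whole numbers and are not normalized. The Ensembl release, any filter and the strand setting are not given in the sources used here. Libraries were grouped as labelled, and symbols and GRCh37 positions were matched for 55501 IDs.

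Genes were filtered with filterByExpr (minimum count 10 over the 6 groups), scaled by TMM and tested with edgeR 4.0.16 (R 4.3.3, limma 3.58.1) in a fit of the compared groups alone, with Benjamini-Hochberg adjustment over 17317 genes. The interaction was tested over 4 groups. SE is the size of the log2 fold change over the square root of F, and the prior count for log values was 2. The scripts were tested on simulated data, where the share of false calls in a pair comparison was above the nominal FDR. Chi-square per degree of freedom between replicates was 1.84 to 6.89 over 18 pairs, so precision was taken from the replicates.

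Alternatives were DESeq2 size factors, DESeq2 1.42.0 itself, no filter, all libraries in 1 fit, a replicate block, an FDR of 1% and each library left out in turn. The members and lists were chosen with earlier results of these data known, and the lists come from general knowledge. Named were the members, CARM1, XBP1 and HSPA5, per list and pair comparison the called gene with the largest rise and fall at a mean log2 CPM of at least 3, and, for each member whose group means span over 1, the 2 genes of nearest pattern; marker genes, and overlapping genes, were named by role or position. Of 125 listed genes, 1 was unmatched. Some genes that this rule names are not reported here.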

Additional observations from a re-analysis of the deposited data

Results flagged for a closer look

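In 6 genes the response to tunicamycin differed between CARM1 knockout and control cells by the interaction term of edgeR's quasi-likelihood test. Of all genes tested, 10.5% were called above 0 and 12.4% below 0 by that term. The term was −1.22 for FOSL1, −1.46 for FOSL2 and −1.19 for DUSP1, so the response lay below that of control cells. It was 1.37 for JUNB, 1.34 for JUND and 1.28 for EGR1, where the response lay above it. In XBP1 knockdown cells the term passed for JUNB (0.69) and IER3 (0.65). Each of these calls was lost when certain single libraries were left out. Of all genes tested, 0.364% were called above 0 and 1.67% below 0 in the knockdown. Groups of 3 libraries were not tested for outlying samples.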

How the results depend on the processing

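Over the 10 genes and 9 comparisons, 1142 of 1200 values under alternatives kept their direction and their side of the threshold, 30 lost and 10 gained a call, and 18 values that were not called changed sign when a library was left out. Their ranges over the fits without 1 library were, for the response of the knockdown, −0.25 to 0.04 for FOSB, −0.44 to 0.54 for FOSL1, −0.09 to 0.08 for IER3 and −0.36 to 0.10 for DUSP1. Against control cells with vehicle they were −0.09 to 0.01 for JUNB, −0.05 to 0.04 for JUND, −0.08 to 0.02 for IER3 and −0.18 to 0.26 for DUSP1 in the knockdown and −0.00 to 0.21 for EGR1 in the knockout, and with tunicamycin −0.00 to 0.35 for FOS and −0.10 to 0.23 for FOSL2 in the knockdown. The number of the 10 genes called moved by over 1.5 times for the knockdown alone. Its response to tunicamycin went from 4 genes to 2 at an FDR of 1%, and to 2 to 4 with a library left out. Against control cells with vehicle it went from 1 gene to 2 without a filter, 2 with all libraries in 1 fit and 0 at an FDR of 1%, and to 0 to 2 with a library left out. Its interaction went from 2 genes to 0 at an FDR of 1%, and to 0 to 2 with a library left out. Over all genes the counts called for these comparisons also moved, from 883 with vehicle to 377 at an FDR of 1%, 1420 with all libraries, 1378 without a filter and 435 to 1234 with a library left out, from 353 for the interaction to 167 and, without a filter, 732 (236 to 455 with a library left out), from 2691 with tunicamycin to 1346 at 1% (1523 to 2426 with a library left out), and for the knockout interaction from 3965 to 2531 at 1%. Replicate numbers did not pair the libraries (45 same-numbered pairs, correlation of deviations −0.0513 to 0.0451, and 1 of 18 libraries best correlated with its own number), and with the number as a replicate block the genes called stayed at 5, 8, 4, 8, 7, 1, 4, 6 and 2 in the 9 comparisons. Counts of the lists stayed within 1.5 times in 303 of 324 cases. A sum of several rows for IER3 was not run, because the symbol has 1 row. Low counts limit FOS in every group, FOSL1, JUN and DUSP1 outside the knockout, and FOSB in the knockout. DUSP1 had 23 to 26 counts per library in vehicle-treated control cells, and FOSB had 13 to 15 in the vehicle-treated knockout. FOS had 5 to 9 counts per library in the treated knockout, and JUN had as few as 1 in a vehicle-treated knockdown library.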
